A study of Homo sapiens with 9 samples.

Results

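The 76 gene symbols described here encode proteins of the cytosolic ribosome, 45 of the large subunit (RPL and RPLP genes) and 31 of the small subunit (RPS genes and RPSA). They were chosen by name alone among the 59050 symbols of the count table, as RPL or RPS followed by a number and at most 1 letter A or X, with RPLP0, RPLP1, RPLP2 and RPSA. Genes without a row in the table used here were not analysed, so that counts and shares cover these 76 symbols and not every ribosomal protein. Of the genes that the rule does not reach, FAU, which encodes a ribosomal protein fused to a ubiquitin-like protein, is given separately. RNA came from MEC1, an established human B-cell line derived from chronic lymphocytic leukemia (CLL). The sample labels of all groups also carry the letters PGK, whose meaning is not given in the sources used here, and no sample was labelled with a drug. The 9 samples were 3 cultured in 2D, 3 bioprinted in a 3D hydrogel and harvested after 7 days, and 3 harvested after 14 days. How long the 2D samples had been cultured is not given in the sources used here. The time in culture and the 3D culture thus cannot be told apart in a comparison with 2D. RNA of the scaffolds was taken up in TRIzol, treated with DNase I and extracted again on a column, while the 2D cultures went straight onto the column, whose protocol has a DNase wash of its own, so that the effect of the 3D culture and that of the extraction cannot be told apart in a comparison with 2D, whereas both 3D time points were extracted alike. Nothing says that the 3 samples of a group were separate cultures or scaffolds, so p-values measure the spread between these samples, which may be technical. In bulk RNA a lower level can stem from fewer cells with the transcript or from less of it per cell, and these cannot be told apart.

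The ribosome is made of ribosomal RNA and about a single copy of each ribosomal protein. The small subunit holds the messenger RNA and decodes it, while the large subunit joins the amino acids, releases the chain through an exit tunnel and recruits elongation factors through a flexible stalk. Cells make the proteins in matched amounts, and most of their messenger RNAs start with a cytosine followed by a run of pyrimidines, the terminal oligopyrimidine (TOP) motif, through which mTORC1 and the RNA-binding protein LARP1 control their translation and stability. In CLL, mutations of RPS15 recur in aggressive disease, and proliferating B cells carry many more ribosomes than resting ones.

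The starts of these genes show what they share beyond their names. Of the members, 61 were found by symbol in RefSeq promoter windows of GRCh38.p14, and 51 of them (83.6%) had an uninterrupted run of at least 8 C or T bases, within 15 bases of an annotated start and reaching to 5 bases from it. Among 27244 other genes, 14.5% had such a run. The sequence CCGGAAG, on either strand of the 300 bases around a start, was found in 36.1% of the members and 12.1% of the other genes, and CACGTG, likewise on either strand, in 6.56% and 8.78%. Windows of 30 bases, 15 before and 15 from the start on, are printed for RPS27, RPL12, RPL31 and RPL34, which had the lowest values at day 7, for RPS29, which rose most between the days, and for 5 members closer to 2D than most. Capitals mark the longest run of C and T in the window:
RPS27, chr1:153990747-153990776, plus strand: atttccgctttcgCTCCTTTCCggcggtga
RPL31, chr2:101002274-101002303, plus strand: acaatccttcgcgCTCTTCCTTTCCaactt
RPL34, chr4:108620561-108620590, plus strand: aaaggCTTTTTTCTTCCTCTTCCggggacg
RPL12, chr9:127451392-127451421, minus strand: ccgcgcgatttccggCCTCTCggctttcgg
RPS29, chr14:49598696-49598725, minus strand: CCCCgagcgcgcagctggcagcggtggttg
RPL4, chr15:66504841-66504870, minus strand: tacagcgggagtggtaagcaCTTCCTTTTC
RPS26, chr12:56041903-56041932, plus strand: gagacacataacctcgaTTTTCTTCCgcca
RPS7, chr2:3575245-3575274, plus strand: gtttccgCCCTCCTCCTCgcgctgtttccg
RPL27, chr17:42998404-42998433, plus strand: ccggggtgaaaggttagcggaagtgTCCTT
RPS15, chr19:1438381-1438410, plus strand: tgcgcaggcgcggaccaaagcgaTCTCTTC
Both kinds of gene had long and short runs. The longest printed run, of 18 bases in RPL34, and a run of 9 bases in RPS27 belonged to genes that fell strongly, while runs of 10 bases in RPL4 and 9 in RPS26 belonged to genes close to 2D. In the printed windows of RPL12, RPS29, RPL27 and RPS15 the longest run was 7 bases or less, which says only that these letters were not found in these windows. Over the 59 matched members retained for testing, the median log2 fold change at day 7 was -1.19 in the 49 with a run and -1.23 in the 10 without.

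The libraries held 54662799 to 85968686 assigned reads. Levels are given as CPM, the counts scaled to a common library size, by the trimmed mean of M values (TMM), and a gene was called changed at an adjusted p of at most 0.05 in edgeR's quasi-likelihood test over 13463 retained genes. All 6 B-cell markers listed were retained, with summed levels of 2518 to 2538 CPM in 2D, 2775 to 3488 at day 7 and 3439 to 3794 at day 14. None of 4 monocyte markers was retained, and of 6 T and NK cell, 4 fibroblast and 2 erythroid genes 1 each was. Summed levels in 2D, at day 7 and at day 14 were 0.579 to 0.759, 0.798 to 1.04 and 0.304 to 0.755 CPM for the monocyte list, 2.17 to 2.98, 0.665 to 1.37 and 0.908 to 2.72 for the T and NK list, where CD3D and CD3G had at most 3 counts in any sample, 6.81 to 7.58, 1.75 to 4.64 and 1.58 to 5.91 for the fibroblast list, and 0.0648 to 0.0990, 1.28 to 2.19 and 2.24 to 4.32 for the erythroid list. The last rise was that of HBA1, called at both days. MALAT1, a nuclear RNA, stood at 5629, 5817 and 7737 CPM in 2D, 3786, 2712 and 2101 at day 7 and 3058, 3213 and 6638 at day 14, and mitochondrial genes took 2.30, 2.81 and 2.83%, 1.64, 1.62 and 1.44% and 2.28, 1.62 and 2.82% of the counts. Their part in the results was not tested.

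In 2D, the ribosomal protein genes were among the most abundant transcripts of MEC1. Between 17 and 18 of them were among the 100 genes with the highest CPM in each 2D sample. Per kilobase of exon, RPS2, which lies at the entry of the messenger RNA channel, had the highest mean level at 2644 CPM per kb, followed by RPS18 at 1810 and RPL3 at 1596. Exon length here is the union over all annotated transcripts, which is far longer than the messenger RNA for some members. Per kilobase of coding sequence, RPLP1 of the stalk came first at 3695 CPM per kb, before RPS2 at 3378 and RPS19 at 2850. RPL17 (2.90 CPM per kb) and RPL22 (12.7) were among the lowest retained members per kilobase of exon. RPL17 shares 59.1% of its exonic bases with another gene of the table, so that its counts are uncertain. RPS10 and RPL36A stayed below 1 CPM in every sample and were not tested, with 58.0% and 26.6% of their exonic bases shared with other symbols. The other 74 members were tested, 44 of the large and 30 of the small subunit.

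The share of all counts that fell on the 76 genes was 4.77, 4.12 and 4.05% in the 2D samples, 1.62, 1.64 and 1.78% at day 7 and 3.21, 1.85 and 2.21% at day 14. All 3 samples of day 7 lay under every 2D sample by more than 2-fold, and the day 14 samples lay between, with replicate 1 far above the other two. The means were 4.31% ± 0.40, 1.68% ± 0.0873 and 2.42% ± 0.71 (SD, n = 3 each). With 3 samples against 3, an exact two-sided permutation test cannot give a p below 0.1, and none was run on this share. At day 14, 10, 3 and 4 members were still among the 100 most abundant genes, and at day 7 the numbers were 2, 1 and 3. The large subunit's part of the member counts was 60.5 to 60.8% in 2D, 62.6 to 63.4% at day 7 and 60.2 to 64.0% at day 14, so that each day 7 sample was above each 2D sample by a small margin.

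**Figure D1:**
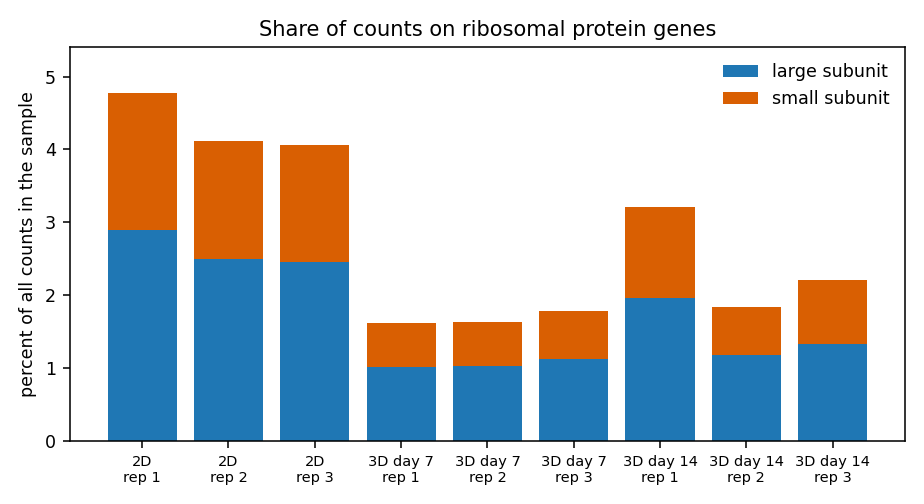
Percent of all counts on the large subunit (blue) and small subunit (orange) genes, stacked, in each of the 9 samples. The bars reach 4.05 to 4.77% in 2D, 1.62 to 1.78% at day 7 and 1.85 to 3.21% at day 14.

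The comparison of 3D at day 7 with 2D asked how the transcripts of the ribosome differed once the cells had spent a week in the scaffold. Of the 74 members, 65 were lower (87.8%) and 1, RPL17, was higher, against 21.2% of all tested genes called lower and 22.2% called higher. The median log2 fold change was -1.19, a level 2.28 times lower, against -0.00395 over all genes, and 49 members fell at least 2-fold by their estimate. In 71 members every day 7 sample was below every 2D sample, an order found in 32.4% of all genes, and in 1 every sample was above, against 32.2%. The large subunit had 39 of 44 members lower with a median of -1.24 and the small subunit 26 of 30 with a median of -1.17, and this difference of medians, 0.07, was smaller than the spread of the members within either subunit. By sample, the median level over the members relative to the 2D mean was 0.20, -0.07 and -0.13 on the log2 scale in 2D and -1.28, -1.23 and -1.08 at day 7. The day 7 samples thus differed little among themselves.

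**Figure D2:**
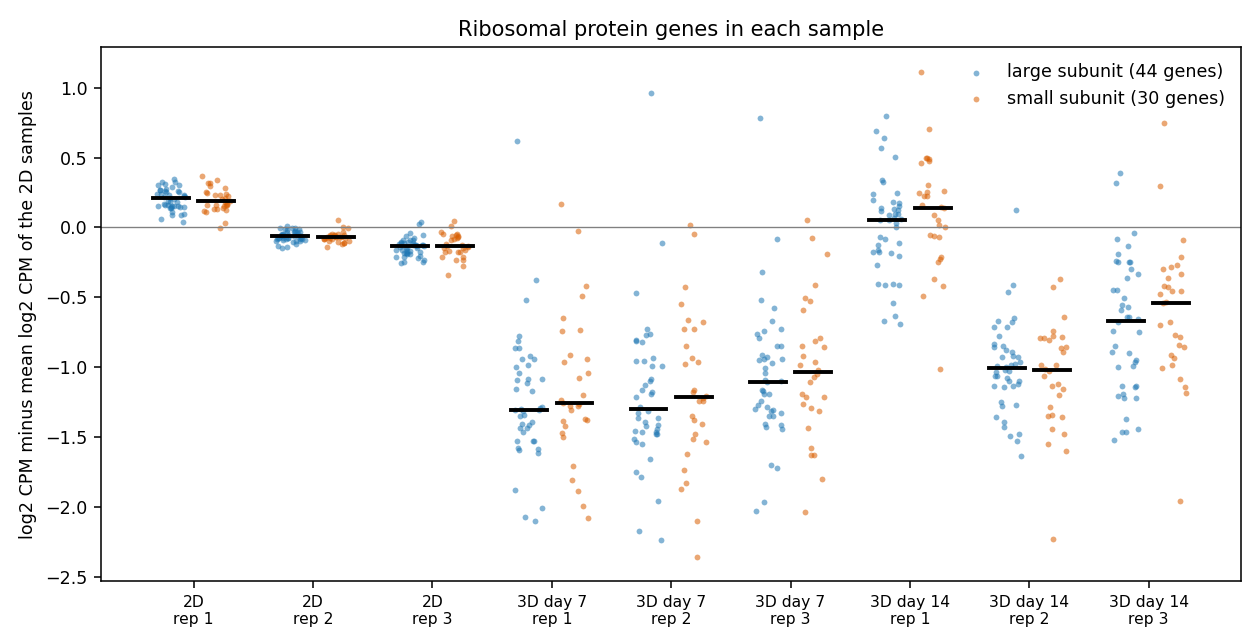
Level of each retained member in each sample, as log2 CPM minus its mean log2 CPM in 2D, for the 44 large (blue) and 30 small subunit genes (orange); bars are medians. Both subunits sit between -1.04 and -1.30 in the day 7 samples, and the day 14 samples spread from above 0 in replicate 1 to -1.02 in replicate 2.

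The deepest fall at day 7 was that of RPS27, a zinc-binding protein of the small subunit. Its level was 515, 388 and 335 CPM in the 2D samples and 96.0, 79.1 and 99.1 at day 7, so that the groups were wide apart (log2 fold change -2.18 ± 0.30, SE, adjusted p = 0.000131). RPL12, which sits at the base of the stalk, was at 436, 349 and 343 CPM in 2D and 88.8, 79.4 and 91.4 at day 7 (-2.12 ± 0.22, adjusted p = 2.43e-05). RPL31, a protein near the opening of the exit tunnel, was at 553, 446 and 425 CPM and 109.8, 105 and 121 CPM (-2.09 ± 0.26, adjusted p = 8.07e-05). In both genes the highest day 7 sample was far below the lowest 2D sample. RPL34, of the large subunit, went from 346, 273 and 257 CPM to 71.9, 74.3 and 87.6 (-1.91 ± 0.27, adjusted p = 0.000180). RPS2, the most abundant member, went from 3264, 2956 and 2687 CPM to 742, 809 and 851 (-1.89 ± 0.21, adjusted p = 3.14e-05). None of these 5 genes shares more than 0.329% of its exonic bases with another gene.

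A few members had smaller differences at day 7 and were not called. RPL4, whose long loop lines the exit tunnel, was measured at 1681, 1542 and 1514 CPM in 2D and 1217, 1459.9 and 1489 at day 7 (log2 fold change -0.19 ± 0.19, adjusted p = 0.453). RPS26, which contacts the messenger RNA where it leaves the small subunit, was at 97.2, 72.3 and 67.5 CPM in 2D and 76.7, 79.0 and 80.8 at day 7, all within the 2D range (-0.00 ± 0.28, adjusted p = 0.996). RPS7 had 262, 223 and 234 CPM in 2D and 170.1, 178 and 209 at day 7 (-0.37 ± 0.26, adjusted p = 0.273), without overlap but close. RPL27 had 246, 186 and 191 CPM and 144, 149 and 165 CPM (-0.44 ± 0.26, adjusted p = 0.180). RPS15, the member mutated in CLL, had 610.0, 474 and 423 CPM in 2D and 370.4, 339.7 and 374 at day 7 (-0.48 ± 0.25, adjusted p = 0.136). In RPL4, RPS7, RPL27 and RPS15 each day 7 sample was below each 2D sample by a small margin. The estimates for RPS7, RPL27 and RPS15 turned to 0.04, 0.08 and 0.06 once a trend with the canonical transcript length was removed, an alternative added after the data were seen. The SE of the reported fit draws on the spread in all 9 samples, those of day 14 included. With only the 6 samples of the contrast the SE of these 3 genes was 0.11, 0.12 and 0.13. All 3 were then called lower, with adjusted p of 0.0109, 0.00679 and 0.00606. RPS15 was called lower with total counts as well (adjusted p = 0.0413). RPS7 and RPS15 were also called lower without day 14 replicate 1, and RPL27 without day 14 replicate 2. RPL35 and RPL38, both large subunit proteins, were at -0.71 and -0.77 and missed the threshold with adjusted p of 0.0642 and 0.0585. Both were called lower in DESeq2 (adjusted p = 0.0302 and 0.0248), with the replicate block (0.0412 and 0.0390), with total counts, without a filter, with the 6 samples of the contrast, and without day 14 replicate 1 or 2. On simulated counts a larger share of DESeq2's calls than of edgeR's fell on unchanged genes. RPL17, the single member called higher, rose from 3.40, 3.14 and 3.39 CPM to 5.07, 6.45 and 5.68 (0.79 ± 0.25, adjusted p = 0.0225). Its level is low, most of its exonic bases are shared with a read-through symbol, and the call was lost, with adjusted p up to 0.102, on leaving out any 2D sample or day 7 replicate 2 or 3, with total counts or without a filter.

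**Figure D3:**
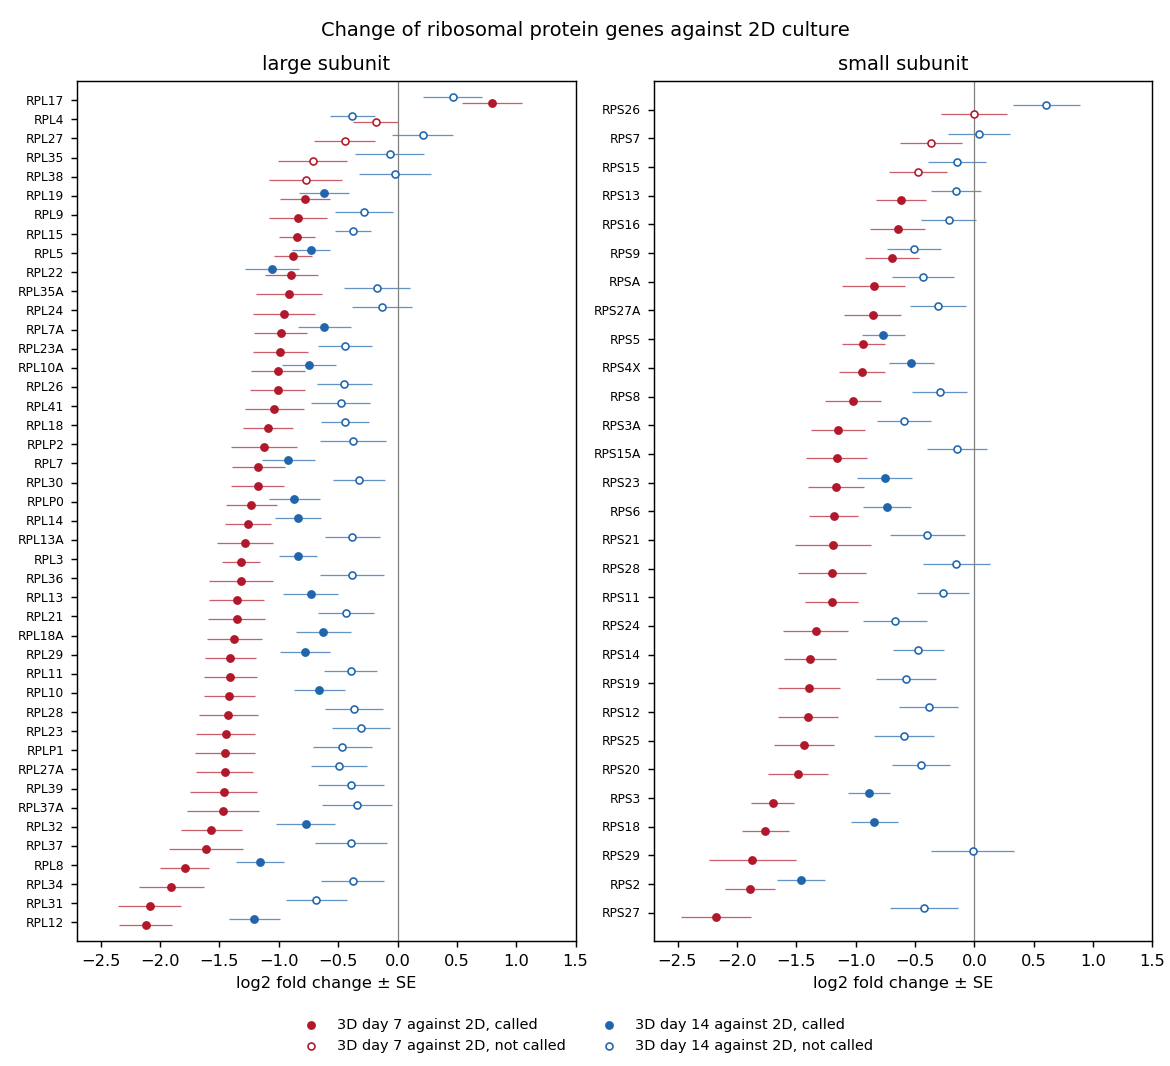
Log2 fold change with its SE of the retained members reported here against 2D, for 3D day 7 (red) and 3D day 14 (blue), ordered by the day 7 value within the large (left) and small subunit (right); filled points were called at an adjusted p of at most 0.05. The quartiles of the day 7 values are -1.42 and -0.90, and most day 14 points lie to the right of those of day 7.

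In each group of members by place in the ribosome most fell at day 7. All 3 stalk proteins were lower: RPLP0, the stalk's core, by -1.23 ± 0.22, RPLP1 by -1.45 ± 0.25 and RPLP2 by -1.12 ± 0.28 on the log2 scale. RPL5 and RPL11, which form a particle with 5S ribosomal RNA and bind MDM2 when free, were at -0.88 ± 0.16 and -1.41 ± 0.23, both called. Of 7 listed proteins around the exit tunnel 5 fell, RPL35 was not called and RPL17 rose. RPL4, which also lines the tunnel, was not on this list and was not called (-0.19 ± 0.19). Of 13 tested proteins of the small subunit's head 11 fell, with RPS15 among those not called, and their median was -1.39. Among 17 tested genes mutated in Diamond-Blackfan anaemia, a failure of red cell production, 12 fell, with a median of -1.01. RPS19, the gene most often mutated in that disease, was at -1.39 ± 0.26 (adjusted p = 0.00102). Each of these shares is to be read against the 87.8% of all members.

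Members with known tasks outside the ribosome or in disease followed the same direction. RPSA, the precursor of a laminin receptor, was at 289.9, 247 and 271 CPM in 2D, 138, 162 and 148 at day 7 and 315, 156 and 127 at day 14. It was lower at day 7 (-0.85 ± 0.26, adjusted p = 0.0198, up to 0.0645 under the alternatives) and its day 14 samples lay on both sides of the 2D range. RPS6, the target of the S6 kinases, was at 1593, 1405 and 1408 CPM in 2D, 605, 636 and 699 at day 7 and 1234, 667 and 742 at day 14, and was called lower at day 7 (-1.18 ± 0.20) and day 14 (-0.74 ± 0.20), the latter call being lost without 2D replicate 1 (adjusted p = 0.0514). RPL10, which is mutated in T-cell leukemia and acts late in large subunit assembly, was called lower at day 7 (-1.42 ± 0.22) and day 14 (-0.66 ± 0.21), with 61.3% of its exonic bases shared with another symbol. Its day 14 call was lost with the 6 samples of the contrast and without 2D replicate 1 or 2 or day 14 replicate 2 or 3, with adjusted p of 0.0586 to 0.0989. RPS14, whose loss marks the 5q- syndrome, was at -1.39 ± 0.22 at day 7, RPL13A, which can silence inflammatory transcripts, at -1.29 ± 0.23, and RPS27A, which is made as a fusion with ubiquitin, at -0.85 ± 0.24, all called. At day 14 these 3 genes were at -0.47, -0.38 and -0.31 and were not called.

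At day 14 against 2D the differences were smaller. Of the 74 members 23 were lower (31.1%), against 17.2% of all tested genes, and none was called higher in edgeR, against 19% of all genes, where 0 members were higher at an unadjusted p under 0.05, as also with DESeq2 after adjustment. The median log2 fold change was -0.44, with -0.44 in the large subunit (16 of 44 lower) and -0.43 in the small subunit (7 of 30). All 23 were also among the 65 lower at day 7, in a contrast with the same 2D samples. In 21 members every day 14 sample was below every 2D sample, against 25.5% of all genes, and in 1, RPL17, above, against 24.2%. The 3 samples of day 14 did not form a single level. Relative to the 2D mean, the median over members was 0.08, -1.02 and -0.65 on the log2 scale in replicates 1, 2 and 3. In replicate 1, 21 members were below the 2D range, 31 within it and 22 above it. In replicate 2, 73 were below and 1 above, and in replicate 3, 65 were below, 6 within and 3 above. Replicate 1 therefore decided much of the count: without it 63 members were called lower, with a median of -0.81 and 18.3% of all genes called lower. Without day 14 replicate 2 or 3 the count was 14 each, and without 2D replicate 1 or 2 it was 13 and 15. The reported fit shares a common estimate of spread per gene among all groups, but their spread differed. Over the samples of a group, the SD of this median was 0.56 for day 14, against 0.17 for 2D and 0.10 for day 7. Adjusted p at day 14 can therefore be too small. With only the 6 samples of this contrast, 14 members were called lower. The share of all genes called in that fit is not given, so its count cannot be set against them.

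The lowest member at day 14 was RPS2, at 1466, 1011 and 763 CPM against 3264, 2956 and 2687 in 2D, without overlap (log2 fold change -1.46 ± 0.21, adjusted p = 0.000231). RPL12 followed with 231, 120.2 and 137 CPM (-1.21 ± 0.22, adjusted p = 0.00112) and RPL8, of the large subunit, with 832, 476 and 481 CPM against 1485, 1278 and 1229.5 in 2D (-1.16 ± 0.20, adjusted p = 0.000948). In these genes replicate 1 was the highest day 14 sample but remained under the 2D samples. RPL22, an RNA-binding member that can be lost without stopping protein synthesis and has a tumour suppressor role in T-cell leukemia, was at 33.8, 28.3 and 29.7 CPM in 2D, 17.8, 15.7 and 15.9 at day 7 and 21.0, 11.4 and 11.8 at day 14. It was lower at both days (-0.89 ± 0.23 and -1.06 ± 0.23, adjusted p = 0.00672 and 0.00330), and day 14 was not called against day 7 (-0.16 ± 0.23, adjusted p = 0.617). RPL7, of the large subunit, was at -0.92 ± 0.23 at day 14 (adjusted p = 0.00697). At the other end, RPS26 had 169, 60.3 and 131 CPM at day 14, with replicates 1 and 3 above and replicate 2 below all 2D samples (0.61 ± 0.28, adjusted p = 0.111). RPL17 (0.46 ± 0.25), RPL27 (0.21 ± 0.26), RPS7 (0.04 ± 0.26) and RPS29 (-0.02 ± 0.35) completed the upper end, none of them called. The estimate of RPL27 was -0.09 without day 14 replicate 1.

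**Figure D4:**
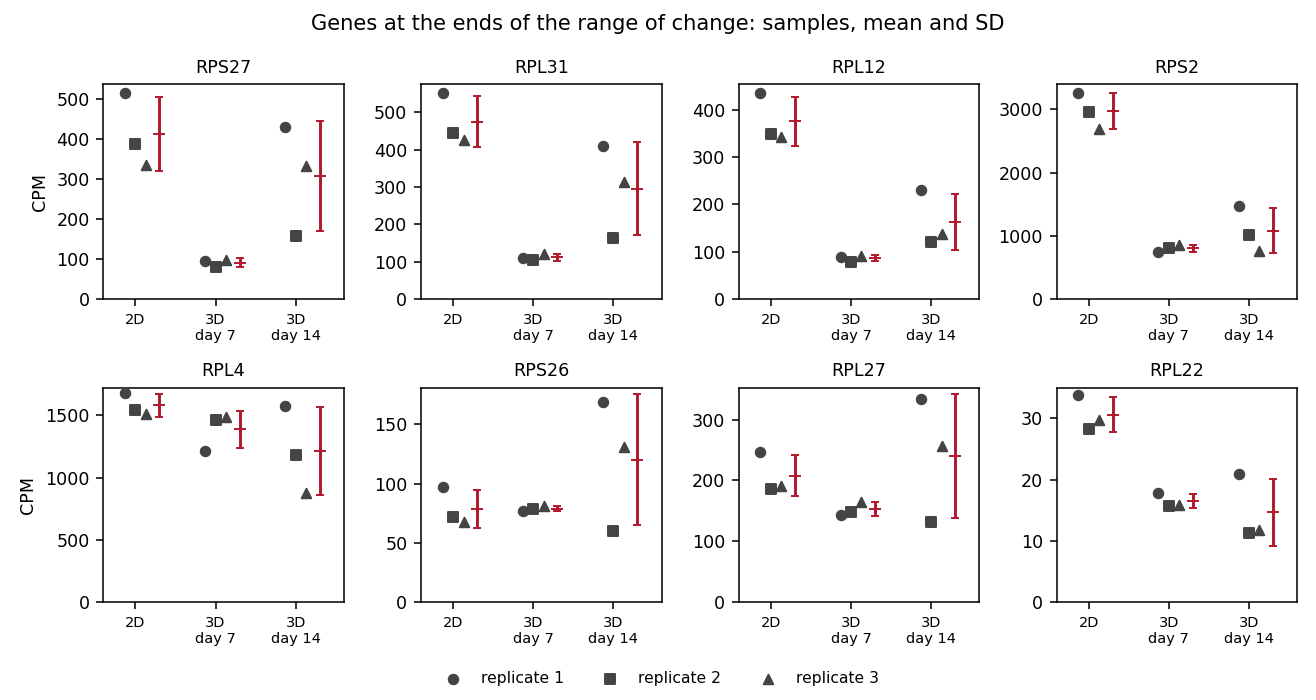
CPM of 8 members at the ends of the range in the 3 samples of each group (circle, square and triangle for replicates 1, 2 and 3), with the mean and SD in red; each axis starts at 0. RPS27, RPL31, RPL12 and RPS2 drop at day 7, RPL4 lies below 2D by a small margin and RPS26 within its 2D range. RPL22 stays low at day 14.

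The comparison of the 3D time points, which were extracted alike, asked how the transcripts changed during the second week. Of the 74 members 37 were higher at day 14 than at day 7 (50%), against 14.5% of all tested genes, and none was called lower in edgeR, against 13.6%, with 0 lower at an unadjusted p under 0.05 and 0 in DESeq2. The median log2 fold change was 0.66, with 0.70 in the large and 0.64 in the small subunit, and 24 of 44 and 13 of 30 members called. In 34 members every day 14 sample was above every day 7 sample, against 18.9% of all genes. All 37 called members had been lower at day 7 than in 2D, as had 65 of all 74. Both contrasts use the same day 7 samples, so these calls are not independent. Of the 65 genes lower at day 7, 14 were lower at day 14 as well and did not differ by the test between the days, among them RPS2, RPL22, RPL5, RPS6 and RPLP0, 9 were lower at both days with day 14 above day 7, and 28 were above day 7 and no longer called against 2D. A further 14 passed neither day 14 test. Without day 14 replicate 1, 25 members were called higher and 2 lower, with 14.4% and 13.9% of all genes. The count was 21 without day 7 replicate 1 and 17 without day 7 replicate 2, and 54 without day 14 replicate 2, when 16.3% of all genes were called higher. For the counts of 21 and 17 the share of all genes is not given, so they are not by themselves a result about the members.

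The 5 members that rose most between the days all had a coding sequence under 400 nt. RPS29, a zinc-binding protein of the small subunit's head, was at 193, 145 and 118 CPM in 2D, 40.2, 34.7 and 49.8 at day 7 and 210.0, 58.3 and 183 at day 14. Replicates 1 and 3 of day 14 were among or above the 2D samples while replicate 2 was near day 7 (log2 fold change between the days 1.85 ± 0.37, adjusted p = 0.00345). RPS27 rose from 96.0, 79.1 and 99.1 CPM at day 7 to 431, 159 and 334 at day 14 (1.75 ± 0.29, adjusted p = 0.00138), again with replicate 2 lowest. RPL34 rose from 71.9, 74.3 and 87.6 to 299.7, 119 and 254 CPM (1.53 ± 0.27, adjusted p = 0.00187), RPL31 from 109.8, 105 and 121 to 410.1, 163 and 313 CPM (1.40 ± 0.26, adjusted p = 0.00241) and RPL37 from 83.8, 76.0 and 94.5 to 285, 91.0 and 217 CPM (1.22 ± 0.31, adjusted p = 0.0120). The call of RPL37 was lost without day 7 replicate 2 (adjusted p = 0.0536). In the first 4 genes the lowest day 14 sample was above the highest of day 7, while in RPL37 replicate 2 of day 14 lay within the day 7 range. Among the lowest values between the days were those of RPL17 (-0.33 ± 0.25), RPL4 (-0.20 ± 0.19), RPL22 (-0.16 ± 0.23) and RPL5 (0.15 ± 0.16), none called. RPL4 was at 1577, 1184 and 876 CPM at day 14.

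Whether a gene departed from the other ribosomal protein genes was tested by scaling each library on the members themselves, so that a value of 0 means a change equal to that of the typical member. On this scale most other genes of the table are higher at day 7 by construction, with 64.9% of all tested genes called higher and 1.94% lower. At day 7, 9 members were above the pool and 7 below it. On simulated counts this test also called some members that had been given no departure, so single calls near the threshold are uncertain. RPS26 was above by 1.22 ± 0.26 (adjusted p = 0.00154), RPL4 by 1.01 ± 0.24 (adjusted p = 0.00254), RPS7 by 0.83 ± 0.23 and RPS15 by 0.74 ± 0.21 on the log2 scale, RPL27, RPS13 and RPS16 by 0.76, 0.59 and 0.56, and the uncertain RPL17 by 1.99. Below the pool were RPS27 (-0.96 ± 0.25, adjusted p = 0.00472), RPL12 (-0.91 ± 0.22, adjusted p = 0.00311), RPL31, RPL34, RPS2, RPL8 and RPS18. By subunit, 3 large and 6 small subunit genes were above and 4 and 3 below. At day 14 against 2D, RPS26 (1.09 ± 0.26), RPL17 (1.00) and RPL27 (0.70 ± 0.24) were above and RPS2 (-0.91 ± 0.23), RPL12 (-0.70 ± 0.22) and RPL8 (-0.64 ± 0.21) below, beside 31.8% and 2.45% of all genes called higher and lower. Between the days RPS29, RPS27 and RPL34 were above and RPL17, RPL22 and RPL4 were among those below, beside 1.65% and 17.1% of all genes. These counts changed on leaving out single libraries. The share of all genes called in those fits is not given, so a change in count is not by itself a result about the members. At day 7 the number below the pool was 3 or 4 on leaving out any single 2D or day 7 sample and 11 without day 14 replicate 2, and the number above was 15 without the latter. At day 14 against 2D it was 1 below and 1 above on leaving out any single 2D sample or day 14 replicate 3, 8 below and 6 above without day 14 replicate 2, and 1 below without day 7 replicate 2 or 3. Between the days, 16 members were below and 7 above without day 14 replicate 2. On leaving out any single 2D sample, 0 were below and 1 above, and on leaving out any single day 7 sample or day 14 replicate 3, 0 were below and 0 above.

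Ordering the members by the length of their coding sequence showed where the day 14 samples parted. At day 7 the median log2 fold change against 2D was -1.33 in the 24 members with a coding sequence under 400 nt, -1.09 in the 29 of 400 nt to under 600 nt and -1.17 in the 21 longer ones. Between day 7 and day 14 the medians were 0.96, 0.65 and 0.43, with Spearman's rho of -0.60 and Pearson's r of -0.50 across the 74 genes, which share libraries and are not independent. In the same length classes, the medians of other coding genes between the days were 0.47 (552 genes), 0.27 (831 genes) and -0.09 (9537 genes), so that short genes outside the ribosome shifted the same way. By sample, the members of the shortest class stood at 0.15, -1.20 and -0.29 relative to 2D in day 14 replicates 1, 2 and 3, and those of the longest class at -0.18, -0.88 and -1.14. Replicate 3 thus resembled replicate 1 more closely in the short members and replicate 2 in the long ones. With a trend of the exon length removed from each library, 63 members were lower and 1 higher at day 7 (median -0.87), beside 19.9% and 25.6% of all genes. At day 14, 47 were lower (median -0.57) beside 18.5%, and between the days 24 were higher and 2 lower (median 0.28) beside 12.4% and 16.6%. With the canonical transcript length in its place, an alternative added after the data were seen, 62 were lower at day 7 beside 20.4%, 53 lower at day 14 beside 18.8%, and 21 higher and 5 lower between the days beside 12.4% and 16.7%, with medians of -0.85, -0.59 and 0.18. The number of members below the pool at day 7 then fell from 7 to 1 and 0.

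**Figure D5:**
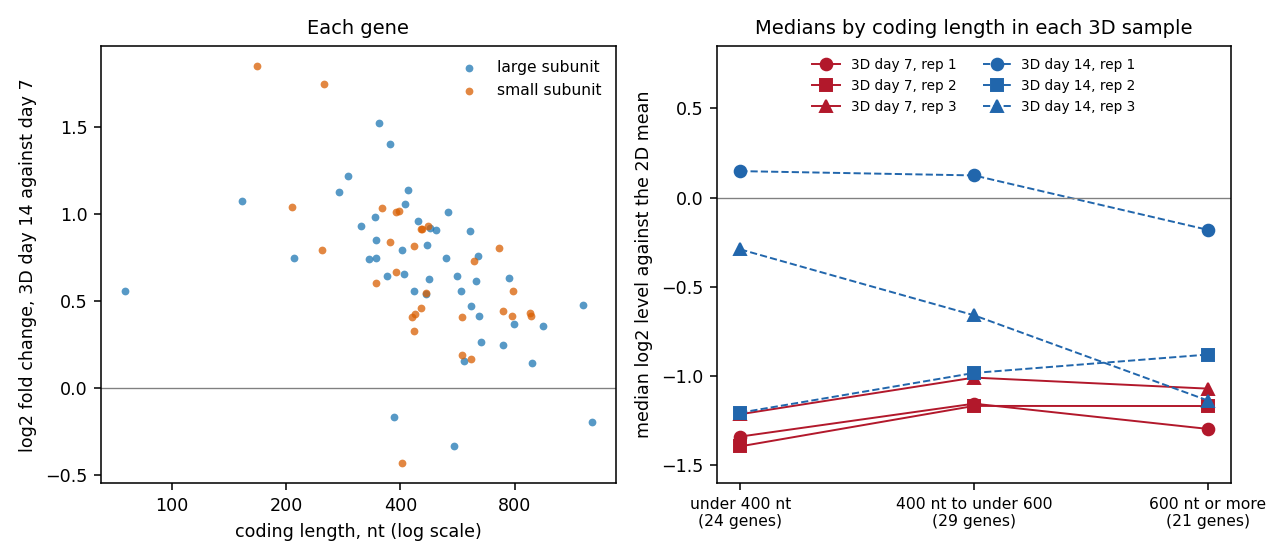
Left, log2 fold change of day 14 against day 7 for each retained member by the length of its coding sequence (log axis), with the large subunit in blue and the small subunit in orange. Right, median log2 level against the 2D mean in 3 classes of coding length for each 3D sample, with day 7 in red and day 14 in blue; day 14 replicate 3 goes from -0.29 in the shortest to -1.14 in the longest class.

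Other genes of the ribosome did not all move with the members. RACK1, a signalling scaffold on the small subunit, was at 1049.6, 971 and 907 CPM in 2D, 433, 507 and 528 at day 7 and 855, 650.1 and 497 at day 14, lower at both days (-1.0 ± 0.18 and -0.55 ± 0.18, adjusted p = 0.000979 and 0.0330). FAU, which encodes a small subunit protein fused to a ubiquitin-like protein, was at 296, 239 and 229 CPM in 2D, 258, 297 and 331 at day 7 and 589, 218 and 325 at day 14 and was not called (0.21 ± 0.28 and 0.57 ± 0.28, adjusted p = 0.560 and 0.128). Of 8 paralogs of members, 6 were retained. At day 7 RPL7L1 (0.56 ± 0.14) and RPL26L1 (0.62 ± 0.22) rose and RPL39L (-1.13 ± 0.23) fell, where RPL39, its parent, fell by -1.47 ± 0.28. At day 14 RPL39L alone was called against 2D, at -0.67 ± 0.23. RPS27L, a p53 target, was the only paralog called between the days, at 0.97 ± 0.25 (adjusted p = 0.0136). Pseudogenes named after members took 0.585 to 0.694% as many counts as the members in 2D, 0.800 to 0.884% at day 7 and 0.790 to 0.989% at day 14. These copies are near identical to their parents, so reads can be split between them.

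Most messenger RNAs of a list of other genes known for a TOP motif, most of them translation factors, were lower as well. Of 17 tested, 12 were lower and 5 not called at day 7, with a median of -0.71, and 13 lower and 4 not called at day 14, with a median of -0.65, where 21.2% and 17.2% of all genes were called lower. EEF1A1, the elongation factor that brings transfer RNA, was at 2744, 2599 and 2663 CPM in 2D, 742, 783 and 734 at day 7 and 986, 1044 and 632 at day 14, with all 3D samples under all 2D samples (-1.83 ± 0.18 and -1.59 ± 0.18). NAP1L1, a histone chaperone, was at -1.09 ± 0.15 and -1.35 ± 0.15. Between the days 1 of the 17 was higher, TPT1, a growth-related protein (0.91 ± 0.22), and 2 were lower, HNRNPA1 (-0.55 ± 0.18) and NPM1 (-0.54 ± 0.18), with a median of 0.01 where the members had 0.66, and with 14.5% and 13.6% of all genes called higher and lower. EEF1A1 and NAP1L1 had the largest called falls of the list at both days. RACK1 belongs to this list too, and EEF1G, the member not tested, was listed at 0 in every sample.

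Chaperones that escort single ribosomal proteins went the other way at day 7, when 5 of 7 rose and 2 were not called, against 22.2% of all genes called higher. RPS19BP1, a binding partner of RPS19, was at 157, 133 and 129.5 CPM in 2D, 286, 326 and 355 at day 7 and 663, 335 and 248 at day 14 (1.20 ± 0.28 and 1.57 ± 0.28). GRWD1, which escorts RPL3, rose at day 7 (1.02 ± 0.14) and was lower at day 14 than at day 7 (-0.88 ± 0.14). TSR2, which escorts RPS26, was at 78.3, 76.5 and 69.4 CPM in 2D, 118, 138 and 133 at day 7 and 191, 129 and 129.6 at day 14, called higher at both days (0.79 ± 0.17 and 1.00 ± 0.17). HEATR3, which takes part in the import of RPL5, was lower at day 14 (-0.92 ± 0.27). A list of 12 genes held those of mTORC1, its regulators and its targets. At day 7, 4 rose and 1 fell, against 22.2% and 21.2% of all genes. At day 14, 3 rose and 4 fell, against 19% and 17.2%. Between the days 2 were higher, EIF4EBP1 and LARP1 (0.45 ± 0.14, adjusted p = 0.0326), and 2 lower, MTOR and EIF4EBP2, against 14.5% and 13.6%. Shares of this list called higher were thus near those of all genes. MTOR, the kinase itself, was at 16.6, 18.4 and 21.5 CPM in 2D, 55.7, 48.6 and 52.1 at day 7 and 18.3, 25.03 and 18.6 at day 14 (1.47 ± 0.18 at day 7), and TSC2, which restrains it, rose as well (1.04 ± 0.20). EIF4EBP1, a repressor of translation that mTORC1 inactivates, was the single fall of day 7, at 238, 193 and 181 CPM in 2D, 44.6, 44.5 and 52.5 at day 7 and 131, 104 and 113 at day 14 (-2.11 ± 0.16, adjusted p = 3.67e-06). At day 14 RPTOR (-1.04 ± 0.25) and TSC1 (-1.0 ± 0.25) had the largest falls and RPS6KB2 (0.71 ± 0.16) and AKT1S1 (0.63 ± 0.20) the largest rises. With total counts as the scaling, under which the median of all genes was -0.16 at day 7 and -0.18 at day 14, 3 of the 7 chaperones rose at day 7, and of the mTORC1 genes 3 rose and 5 fell. The shares of all genes called under this scaling are not given here, so these counts cannot be read against them.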

How the data were processed

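RNA of MEC1 cells was measured in 9 samples, 3 in each of 3 groups defined by culture and time point. Libraries were prepared by the authors with a SMART-Seq protocol from 2 ng of RNA and sequenced as single reads of 100 nt. Per the submitters' processing notes and the methods, reads were trimmed with Trimmomatic (version 0.39), aligned to GRCh38 with GENCODE release 31 with STAR (version 2.5.3a) and assigned to genes with featureCounts (version 1.6.4). The authors deposited raw counts per gene symbol, without normalization, with the length of the union of exons. The strand setting and the treatment of reads with several alignments are not given in the sources used here, so overlapping genes and pseudogene copies cannot be separated.

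The filter kept genes that exceeded 1 CPM in 3 or more samples. In R (version 4.3.3), edgeR (version 4.0.16) was used with TMM factors, 1 mean per group over all 9 samples, and the quasi-likelihood test of 3 contrasts, with Benjamini-Hochberg adjustment over all 13463 tested genes and a threshold of 0.05. For log2 levels of single samples a prior count of 2 was added. To test departure from the other members, libraries were scaled by the median of ratios over the members in place of TMM. Coding and canonical transcript lengths came from GENCODE release 44 and start windows from RefSeq (GRCh38.p14). Exonic bases shared with another gene were counted from the coordinates in the deposited table.

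The members and the gene lists were chosen with earlier results of these data known, among them a fall of the ribosomal protein genes at day 7, so the direction of that family is not independent evidence. Named genes were the 5 highest and 5 lowest per contrast, members called against the majority or not called at day 7, the 5 clearest departures from the pool in each direction, the 3 highest and lowest levels per length, and members with known roles. From longer lists, the largest called rises and falls were named. RPL8, RPL3, RPL39 and the medians by coding length were added where a comparison needed them. Some genes that enter the counts are not reported here by name.

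Alternatives were DESeq2 (version 1.42.0) size factors or Wald test, total counts, TMM without ribosomal protein, immunoglobulin and mitochondrial genes, other filters, 6 samples per contrast, a replicate block, trends with length or GC content removed (loess, span 0.4), pseudogene reads added to the parent, and 9 fits without 1 sample each. The fits were tested on simulated counts. At this depth the spread between replicates, rather than counting error, set the precision.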

Additional observations from a re-analysis of the deposited data

Results flagged for a closer look

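The change against 2D differed between day 7 and day 14 for 37 of the 74 tested members, all higher at day 14, by edgeR's test of day 14 against day 7. Of all tested genes, 14.5% were called higher and 13.6% lower in this test. The 2D samples cancel in the difference, so this is the contrast between the days given above. The count was 24 with the length trend removed, 21 with the canonical length trend removed and 17 to 54 on leaving out a sample. For most fits without a sample the share of all genes called is not given. Of the members named for this contrast, the difference was 1.85 for RPS29, 1.75 for RPS27, 1.53 for RPL34, 1.40 for RPL31 and 1.22 for RPL37 on the log2 scale. The call of RPL37 was lost without day 7 replicate 2 (adjusted p = 0.0536), and its value was 0.88 to 1.57 on leaving out a sample. In RPS29, RPS27, RPL34 and RPL31 all 3 day 14 samples were above all 3 day 7 samples, and in RPL37 this held for 2 of 3, with day 14 replicate 2 the lowest of its group in all 5 genes.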

How the results depend on the processing

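The fall at day 7 kept its direction in the median and in most members under the alternatives run, with 49 to 70 members called lower, where 49 is the number that also changed at least 2-fold. The counts at day 14 and between the days, the departures from the pool and the difference of the subunit medians depended on the setting, and the cause was not tested except where a stricter rule or fewer samples sets the count. Of 36 called results for named members, 31 stayed called in every alternative. The depth limits no retained member, but RPL17 rests on few reads. The counts of members in this section show how far calls depend on the setting. Except where the results above give it, the share of all genes called under the same setting is not given. A change in such a count is therefore not by itself a result about the members.

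Members called higher at day 7 went from 1 to 0 without genes that share exons, with a minimum absolute log2 fold change of 1, with total counts and without a filter, and were 0 to 1 on leaving out a sample. Members called lower at day 14, 23 as reported, were 4 with the minimum fold change, 43 with total counts, 14 with the 6 samples of the contrast, 47 with the length trend removed, 50 with the replicate block and the length trend removed, 53 with the canonical length trend removed, and 13 to 63 on leaving out a sample. Members called higher at day 14 were 0 to 2 on leaving out a sample. Between the days, members called lower were 2 with the length trend removed, 2 with the block and the length trend removed, 5 with the canonical length trend removed and 0 to 2 on leaving out a sample. Members called higher between the days, 37 as reported, were 14 with the minimum fold change, 24 with the length trend removed, 23 with the block and the length trend removed, 21 with the canonical length trend removed and 17 to 54 on leaving out a sample.

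Members below the pool at day 7, 7 as reported, were 3 without a filter, 14 with the 6 samples, 1 with the length trend removed, 1 with the block and the length trend removed, 0 with the canonical length trend removed and 3 to 11 on leaving out a sample. Those above, 9 as reported, were 4 without a filter, 20 with the 6 samples, 15 with the canonical length trend removed and 6 to 15 on leaving out a sample. At day 14 the 3 below became 0 without a filter, 1 with the 6 samples, 1 with either length trend removed and 1 to 8 on leaving out a sample. The 3 above became 5 when the pool was the sum of the members' counts, 1 without a filter, with the 6 samples, with either length trend removed and with the block and the length trend removed, and 1 to 6 on leaving out a sample. Between the days the 4 below became 2 without genes that share exons, 1 with filterByExpr, 0 without a filter or with the 6 samples, 7 with the GC trend removed, 11 with the block and the length trend removed, 9 with the canonical length trend removed and 0 to 16 on leaving out a sample. The 3 above became 0 with the 6 samples or the canonical length trend removed, 1 with the length trend removed, alone or with the block, and 0 to 7 on leaving out a sample.

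The median log2 fold change at day 7, -1.19, was -1.35 with total counts, -0.87 with the length trend removed, alone or with the block, and -0.85 with the canonical length trend removed. Between the days the median of 0.66 was 0.26 with the block and the length trend removed, 0.18 with the canonical length trend removed and 0.36 to 0.92 on leaving out a sample. The large minus small subunit median at day 7, -0.07, was -0.17 with the length trend removed, -0.16 with the block as well, -0.050 with the GC trend removed and -0.053 with the canonical length trend removed. At day 14 it was -0.015 and became 0.023 with the replicate block and 0.0044 with the block and the length trend removed, with -0.089 to 0.016 on leaving out a sample. Between the days it was 0.062, -0.052 with the GC trend removed, 0.12 with the block and the length trend removed and 0.0078 to 0.099 on leaving out a sample. The share of counts on members at day 7 was 1.80% without immunoglobulin and mitochondrial counts in the total.

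The reversals were of named members not called in the reported fit. Of the reversed estimates, RPL5 between the days with the length trend removed (adjusted p = 0.0464) and RPS7 at day 14 without day 14 replicate 1 (adjusted p = 0.0147) were called. RPL27 was 0.084 at day 7 with the canonical length trend removed and -0.093 to 0.50 at day 14 on leaving out a sample. RPL5 between the days was -0.32 with the length trend removed, alone or with the block, -0.27 with the canonical length trend removed and -0.026 to 0.25 on leaving out a sample. RPS15 was 0.056 at day 7 with the canonical length trend removed and -0.56 to 0.054 at day 14 on leaving out a sample. RPS26 at day 7 was 0.00099 with filterByExpr, 0.029 with the replicate block, 0.25 with the length trend removed, 0.26 with both, 0.24 with the canonical length trend removed and -0.14 to 0.15 on leaving out a sample. RPS29 at day 14 was 0.069 with the length trend removed, 0.040 with the GC trend removed and -0.33 to 0.37 on leaving out a sample. RPS7 was 0.038 at day 7 with the canonical length trend removed. At day 14 RPS7 was -0.19 with total counts, -0.016 without a filter, -0.026 with the replicate block, -0.16 with the length trend removed, -0.17 with both, -0.14 with the canonical length trend removed, -0.020 with the GC trend removed and -0.45 to 0.24 on leaving out a sample.

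Whether samples with the same replicate number were paired is not given in the sources used here. Correlations of the deviations of same-numbered samples lay between -0.1 and 0.185, and not every sample correlated best with its own number. Each 2D sample correlated best with the day 14 sample of its number (0.185, 0.108 and 0.0931), while all same-numbered pairs with a day 7 sample were negative. With the replicate block, 67 members were lower and 1 higher at day 7, 31 lower at day 14 and 37 higher between the days.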
